A study of Mus musculus with 4 samples.

Results

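The 9 genes of pericellular proteolysis followed here through tumour-infiltrating immune cells were the matrix metalloproteinases Mmp8, Mmp12, Mmp13, Mmp14 and Mmp19, the membrane protease Adam8, and the tissue inhibitors of metalloproteinases Timp1, Timp2 and Timp3. They were taken as a list by name, 9 of the 32285 genes in the count matrix, and every sample and every cell type name of the study was used. All mice were Rag2-/- hosts, which make no T or B cells of their own, and carried YUMM1.7OVA melanoma, a mouse line with mutant Braf and without Cdkn2a that expresses ovalbumin. All received ovalbumin-specific OT-1 T cells on day 7, and live CD45+ cells were sorted on day 10, 72 h later. The groups differed in the injected line, with 1 sample each. NTT was naive to targeted therapy, that is, to drugs against the MAPK pathway, and RTT had become resistant to it. RTT_ROSA26 was a resistant line carrying a control guide, and RTT_PTGS12KO a resistant line with Ptgs1 and Ptgs2, which encode the COX enzymes of prostaglandin synthesis, knocked out. Per the study's methods, guides were brought into clones with inducible Cas9, so an edited line may stand for 1 clone. The cell line labels of NTT and RTT end in a code of their own (Y1.7_NTT_3A6 and Y1.7_RTT_2B12), so each of these may stand for 1 clone too. The labels give 1 tumour per condition and the study's legends give pooled tumours, and which holds here was not settled.

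Matrix metalloproteinases are zinc enzymes that are made as inactive precursors and cut collagens, elastin and many cell surface or secreted proteins once activated. TIMPs bind the active site of these enzymes and block them, and TIMP2 also takes part in the activation of another family member by MMP14 at the cell surface. In tumours, macrophages, monocytes, neutrophils and fibroblasts are each known sources of different members of the family.

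Mmp13, Mmp12 and Mmp8 lie in the same stretch of mouse chromosome 9 (GENCODE annotation of GRCm38), at 7272514 to 7283331, 7344381 to 7369499 and 7558456 to 7568485, all on the plus strand. The others are spread over the genome: Adam8 on chromosome 7 from 139978932 to 139992562, Timp3 on chromosome 10 from 86300372 to 86349506, Mmp19 on chromosome 10 from 128790910 to 128800824, Timp2 on chromosome 11 from 118301069 to 118355740, Mmp14 on chromosome 14 from 54431612 to 54445364 and Timp1 on the X chromosome from 20870166 to 20874735. All 9 are annotated as protein coding. Promoter windows (250 bases before to 50 after a start, RefSeq, GRCm38.p6) were held for 8 of the 9 genes, and 2 of their 9 windows contained TGAGTCA on either strand, the core site of AP-1, a factor long known to bind collagenase promoters. The same letters were found in 5.20% of all 32851 windows. The 60 bases before the start are shown for the chromosome 9 genes because Mmp13 was detected more often in cells that held Mmp12. Capitals mark the match, which begins 35 bases before the Mmp13 start and 44 bases before the second Mmp12 start. The windows of the first Mmp12 start and of Mmp8 held none.
Mmp13, chr9:7272454-7272513, plus strand: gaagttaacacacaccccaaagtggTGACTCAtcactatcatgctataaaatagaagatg
Mmp12, second start, chr9:7347314-7347373, plus strand: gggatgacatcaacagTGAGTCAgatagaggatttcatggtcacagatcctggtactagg
Mmp12, first start, chr9:7344337-7344396, plus strand: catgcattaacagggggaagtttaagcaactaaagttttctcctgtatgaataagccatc
Mmp8, chr9:7558369-7558428, plus strand: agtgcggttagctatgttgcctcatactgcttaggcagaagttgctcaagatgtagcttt

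The matrix held 33368 cells, between 6836 and 10296 per sample, and 69332486 to 146829369 UMIs (unique molecular identifiers, each standing for 1 captured transcript). The median cell held 7293 UMIs in NTT and 12219 to 13280 in the resistant samples. UMIs were summed per sample, over all cells or within the authors' cell types, and divided by the total of the same sum to give CPM (UMIs per 1e6 UMIs). Most cells of NTT were monocytes (6619, against 308 macrophages), most of RTT and RTT_ROSA26 were macrophages (6734 and 5993, against 522 and 144 monocytes), and RTT_PTGS12KO held 4015 monocytes and 5207 macrophages. In sums over all cells, fewer cells of a type and less RNA per cell cannot be told apart. The macrophages of NTT were mostly TAM_H2Ab1 and TAM_cycling cells (192 and 79 of 308), whereas TAM_C1q and TAM_Spp1 held most of those in RTT (3412 and 2057 of 6734), with TAM_C1q and TAM_cycling most of those in RTT_ROSA26 (2247 and 1834 of 5993). Of the 17 type names, 14 had at least 50 cells in a sample. Marker lists were highest in the type of the matching name for neutrophils, NK cells, T cells, cDC2s, CCR7+ dendritic cells (DC3), osteoclast-like cells (Ctsk_Macro) and fibroblasts (Myofibrobl). Infl_Mono led the monocyte list, and Macro and TAM_C1q led the macrophage list. The cDC2 list was nearly as high in Macro (565 CPM by median) as in cDC2s (677). Mast, cDC1 and Monocyte_3 had fewer than 50 cells in every sample and were not ranked. Among the ranked types the mast cell list was highest in cDC2s (65.9), the cDC1 list in Macro (447) and that of non-classical monocytes in TAM_C1q (359). Myofibrobl cells came through the CD45+ sort and numbered 6 in NTT, against 249 for RTT, 59 for RTT_ROSA26 and 37 for RTT_PTGS12KO. The 4 samples were pooled before capture and loaded 3 times, so they shared any free RNA of a load. Barcode sequences recurred for 98 of 33270 between loads, 75 of them in different samples, and never within a load. With 1 sample per group no test was possible. Intervals are exact 95% intervals (Poisson for CPM, Clopper-Pearson for shares) and cover counting error only, and the range over loads is technical spread.

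The collagenases came first. Mmp8, the collagenase stored in neutrophil granules, was at 21.4 CPM over all cells in NTT (20.3 to 22.5), against 15.2 for RTT (14.5 to 15.9), 8.22 for RTT_ROSA26 (7.69 to 8.77) and 11.3 for RTT_PTGS12KO (10.7 to 11.8). One cell type held its highest levels. In neutrophils (Neutro) it reached 323 CPM in NTT (291 to 358), against 271 for RTT (245 to 299), 189 for RTT_ROSA26 (172 to 208) and 143 for RTT_PTGS12KO (124 to 163), above every value in another type of at least 50 cells. Infl_Mono was next at 28.0, 69.1, 53.9 and 65.0 CPM in the same order, its range overlapping that of Monocyte_1 below it, and Ctsk_Macro was lowest by median over samples, at 0.699 to 1.17, although TAM_H2Ab1 of RTT held no UMI in 63 cells. Neutrophils were 1.19% to 2.14% of the cells and held 25.3% of the Mmp8 UMIs in NTT, against 23.0% for RTT, 47.8% for RTT_ROSA26 and 12.4% for RTT_PTGS12KO. The largest source was Monocyte_1 in NTT (47.4%) and RTT_PTGS12KO (41.6%) and TAM_Spp1 in RTT (38.5%), and the order of the samples over all cells was not that of the neutrophil share. A Mmp8 UMI was found in 59.4%, 61.6%, 52.1% and 43.1% of neutrophils, or 41.5%, 39.9%, 30.8% and 21.8% once each cell was thinned to 3000 UMIs. In NK cells, which are not known to make it, the shares were 1.69% in NTT and 0.980% in RTT_PTGS12KO (0.740% and 0.332% thinned; median depths 7669 and 15524 UMIs, against 9261 and 8976 in neutrophils). The neutrophil level and both shares were thus lowest in RTT_PTGS12KO. Its counting interval lay below that of RTT_ROSA26, but its range over loads (100.1 to 186 CPM) overlapped that of RTT_ROSA26 (165 to 218).

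Mmp13, a collagenase best known from bone and cartilage, was at 91.4 CPM over all cells in NTT (89.2 to 93.7), against 47.8 for RTT (46.6 to 49.1), 18.0 for RTT_ROSA26 (17.2 to 18.8) and 29.1 for RTT_PTGS12KO (28.3 to 30.0). It was found in monocytes, in some macrophages and in neutrophils. Neutrophils held 84.2 CPM in NTT, against 34.5 for RTT, 9.19 for RTT_ROSA26 and 31.3 for RTT_PTGS12KO. TAM_H2Ab1 cells held 302 CPM in NTT, 134 in RTT and 82.5 in RTT_PTGS12KO, and Infl_Mono 145 in NTT, against 226 for RTT, 29.6 for RTT_ROSA26 and 35.9 for RTT_PTGS12KO. Those ranges overlapped, as did those of each next type down to TAM_Spp1. In Infl_Mono of RTT_PTGS12KO 1 cell held 81 of the 180 Mmp13 UMIs, and the loads gave 10.4 to 91.1 CPM. In Infl_Mono of RTT_ROSA26 1 cell held 11 of 17. Macro cells, despite their macrophage markers, held 2.35 to 3.90 CPM. Within macrophages a Mmp13 UMI was found in 57.8% of cells in NTT, against 19.6% for RTT, 9.56% for RTT_ROSA26 and 14.2% for RTT_PTGS12KO (35.9%, 7.99%, 3.41% and 5.76% thinned), against 3.10% and 2.29% of NK cells in NTT and RTT_PTGS12KO (1.48% and 0.664% thinned). All 4 shares in macrophages were above both NK cell shares on either scale.

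Mmp12, the macrophage elastase, was at 323 CPM over all cells in NTT (318 to 327), against 59.4 for RTT (58.0 to 60.8), 50.7 for RTT_ROSA26 (49.4 to 52.0) and 117 for RTT_PTGS12KO (116 to 119). NTT stood far above the resistant samples, and the knockout sample stood above the other resistant samples. By median over samples 3 types led, with overlapping ranges. cDC2 cells held 194, 378, 190 and 219 CPM in the 4 samples, Monocyte_1 held 433, 107, 87.3 and 224, and TAM_Spp1 held 128 in RTT, 82.1 in RTT_ROSA26 and 213 in RTT_PTGS12KO. Within cDC2s, RTT was the highest sample, and within Monocyte_1 it was NTT. In NTT alone Infl_Mono (286 CPM), TAM_cycling (219) and neutrophils (204) also exceeded the cDC2s, and their ranges overlapped those of the leading types. By median, Myofibrobl cells were lowest, at 5.02 and 8.71 CPM in RTT and RTT_ROSA26. Monocyte_1 cells supplied 76.7% of the Mmp12 UMIs of NTT and 47.5% of those of RTT_PTGS12KO, while TAM_Spp1 supplied 42.7% in RTT and TAM_C1q 39.8% in RTT_ROSA26.

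Mmp12 was concentrated in few cells. It took 437 of the 8266 NTT cells to hold 50% of its UMIs, 110 of the 7970 RTT cells, 76 of the 6836 RTT_ROSA26 cells and 252 of the 10296 RTT_PTGS12KO cells, and single cells held up to 101, 171, 194 and 192 UMIs. This was not particular to Mmp12. Mmp8 had fewer UMIs, and 113, 90, 44 and 159 cells held 50% of them in the same samples. A value in a single type could therefore rest on 1 cell. In Ctsk_Macro of RTT, 1 cell held 129 of the 152 Mmp12 UMIs, in DC3 of NTT 1 cell held 47 of 64, and in Macro of RTT_PTGS12KO 1 cell held 38 of 98. A Mmp12 UMI was found in 37.6%, 17.4%, 7.64% and 20.7% of monocytes (31.3%, 12.5%, 5.80% and 14.1% thinned), and in 4.09% and 5.56% of NK cells in NTT and RTT_PTGS12KO (2.07% and 1.66% thinned). The share in monocytes of RTT_ROSA26 was the closest to that in NK cells.

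Mmp14, the membrane-anchored collagenase, was at 72.6 CPM over all cells in NTT (70.6 to 74.6), against 125 for RTT (123 to 127), 122 for RTT_ROSA26 (120 to 124) and 79.3 for RTT_PTGS12KO (77.8 to 80.7). NTT and RTT_PTGS12KO were the lower pair. By type it was highest in Ctsk_Macro, the osteoclast-like cells, at 245 CPM in RTT, 221 in RTT_ROSA26 and 194 under the knockout, with no overlap with TAM_C1q below, and lowest in NK cells at 8.25 and 7.39. Mmp19, a secreted member that is neither a collagenase nor an elastase, was at 30.4 CPM over all cells in NTT (29.1 to 31.8), against 44.7 for RTT (43.5 to 45.9), 25.7 for RTT_ROSA26 (24.8 to 26.7) and 28.8 for RTT_PTGS12KO (27.9 to 29.7). RTT was the high sample. TAM_Spp1 led at 73.8 CPM in RTT, 55.0 in RTT_ROSA26 and 42.9 in RTT_PTGS12KO, and the ranges of neighbouring types overlapped down to TAM_H2Ab1. Adam8, a membrane protease of myeloid cells that sheds surface proteins, was at 175 CPM over all cells in NTT (172 to 178), against 235 for RTT (232 to 238), 184 for RTT_ROSA26 (181 to 186) and 166 for RTT_PTGS12KO (164 to 168). It was high in TAM_Spp1 (333, 270 and 222 CPM in the resistant samples) and in neutrophils (242, 300, 282 and 231), whose ranges overlapped with each other and with TAM_C1q. Myofibrobl cells held 13.2 and 11.2 CPM. Adam8 was also present in NK cells, at 77.1 CPM in NTT and 56.5 in RTT_PTGS12KO.

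**Figure D1:**
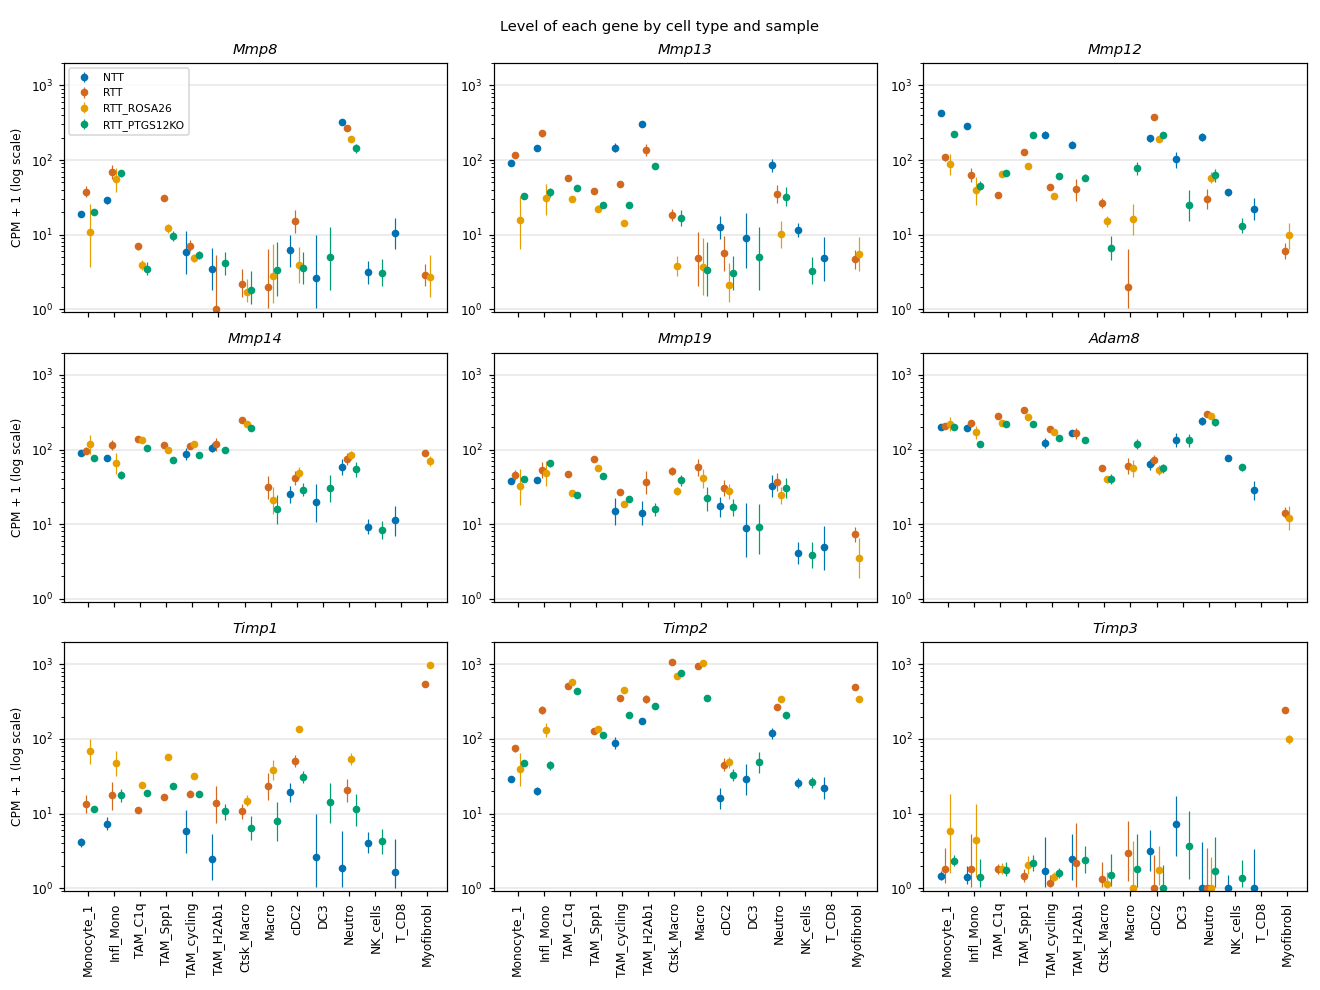
Level of each gene (CPM + 1, log scale) in each cell type with at least 50 cells in a sample; points are the 4 samples and bars are exact 95% Poisson intervals. Mmp8 stands out in neutrophils (143 to 323 CPM), Mmp14 in Ctsk_Macro (194 to 245), Timp1 in Myofibrobl (542 and 993) and Timp3 in Myofibrobl (97.5 and 243), whereas Mmp12, Mmp13, Mmp19 and Adam8 are shared by several myeloid types.

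The inhibitors differed from one another in their source. Timp1, a soluble inhibitor, was at 5.06 CPM over all cells in NTT (4.55 to 5.62), against 53.3 for RTT (52.0 to 54.7), 54.4 for RTT_ROSA26 (53.1 to 55.8) and 19.6 for RTT_PTGS12KO (18.9 to 20.4). Myofibrobl cells held 542 CPM in RTT and 993 in RTT_ROSA26, and in RTT they supplied 76.3% of the gene's UMIs from 3.12% of the cells. In RTT_ROSA26 they supplied 39.9%, and in RTT_PTGS12KO 24.0%. Without them Timp1 was at 4.42, 13.6, 33.4 and 15.1 CPM, so RTT_ROSA26 stood highest and no longer level with RTT. Among immune cells cDC2s came first, at 18.3 CPM in NTT, against 49.8 for RTT, 136 for RTT_ROSA26 and 30.3 for RTT_PTGS12KO, their range overlapping those of the myeloid types below. In macrophages Timp1 was at 6.15, 12.7, 30.1 and 17.4 CPM, with load ranges of 12.5 to 13.1 in RTT and 29.0 to 31.0 in RTT_ROSA26. The summed level of the 6 fibroblast markers outside Myofibrobl was at most 4.91 CPM in NTT, against 10.2 for RTT, 19.9 for RTT_ROSA26 and 19.5 for RTT_PTGS12KO, and its part in these Timp1 levels was not tested.

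Timp2, the inhibitor that also partners Mmp14, was at 38.0 CPM over all cells in NTT (36.5 to 39.4), against 412 for RTT (409 to 416), 456 for RTT_ROSA26 (453 to 461) and 195 for RTT_PTGS12KO (193 to 198). NTT was lowest and the knockout sample lay between. Macrophage types led without being its sole source. Macro cells held 967 CPM in RTT, 1042 in RTT_ROSA26 and 356 in RTT_PTGS12KO, Ctsk_Macro 1094, 708 and 777, and TAM_C1q 513, 576 and 445. The ranges of Macro and Ctsk_Macro overlapped, and that of Ctsk_Macro lay above TAM_C1q. Myofibrobl cells held 497 CPM in RTT and 339 in RTT_ROSA26. Neutrophils held 118, 268, 348 and 207 CPM in the 4 samples, above the 127, 134 and 112 of TAM_Spp1 in the resistant ones. Monocyte_1 and the dendritic cells were far lower, with medians over samples of 38.1 to 42.6 CPM, near the 24.8 and 25.2 of NK cells. A Timp2 UMI was found in 62.7% of macrophages in NTT, against 83.0% for RTT, 83.5% for RTT_ROSA26 and 76.5% for RTT_PTGS12KO (34.0%, 57.6%, 59.5% and 44.4% thinned), against 17.5% and 21.2% of NK cells in NTT and RTT_PTGS12KO (6.07% and 6.64% thinned).

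Timp3, the inhibitor that binds to the matrix, was highest in Myofibrobl cells, at 243 CPM in RTT (233 to 254) and 97.5 in RTT_ROSA26 (85.4 to 111). Their ranges over loads overlapped, at 203 to 271 CPM in RTT and 23.2 to 273 in RTT_ROSA26. A single Myofibrobl cell held 71 of the 235 UMIs in RTT_ROSA26, and another held 167 of the 2135 in RTT. No other type with 50 cells exceeded 6.31 CPM, a value that rested on 4 UMIs in DC3 of NTT. Over all cells it was at 0.880, 18.8, 2.75 and 2.01 CPM, and 97.2% of its UMIs in RTT came from Myofibrobl. Without Myofibrobl it was at 0.520, 0.565, 0.631 and 0.866 CPM, too few UMIs (36 to 126 per sample) to say more. The Myofibrobl cells carried Col1a2 (442 and 406 CPM in RTT and RTT_ROSA26), Col3a1 (279 and 182), Dcn (166 and 85.8) and Pdgfra (81.3 and 52.7), all known from fibroblasts. Of the same fibroblast markers, Col1a1 (27.3 and 5.81) and Lum (19.0 and 0) were lower. The melanoma marker list was highest in Ctsk_Macro (39.2 CPM by median). What the Myofibrobl cells are was not tested.

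**Figure D2:**
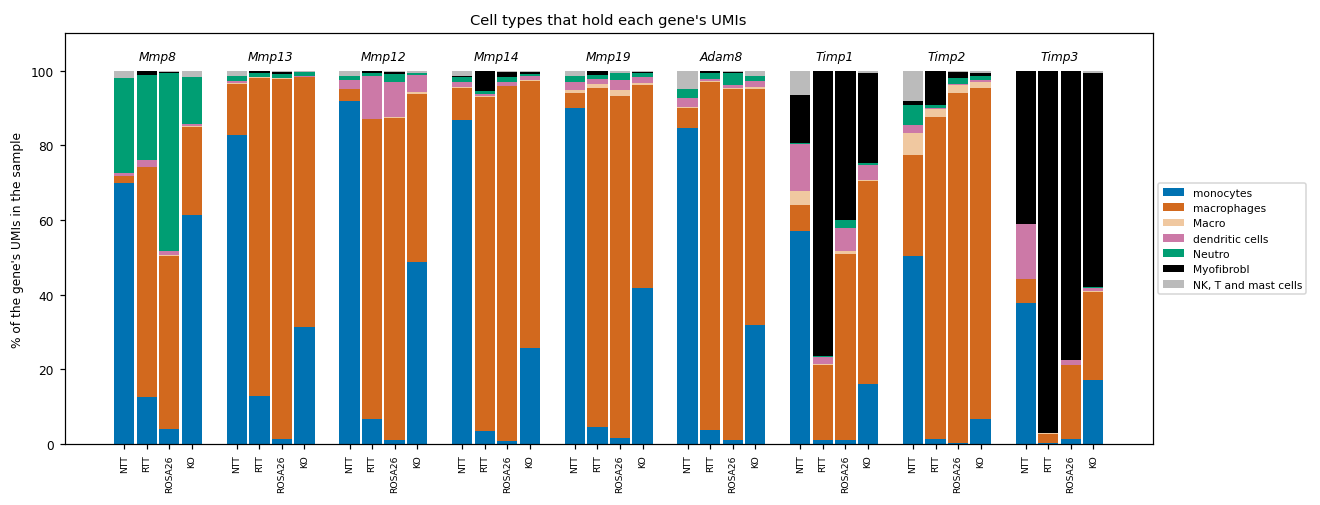
Share of each gene's UMIs (per cent, stacked to 100) that came from each group of cell types in each sample. Myofibrobl supply 97.2% of Timp3 and 76.3% of Timp1 in RTT, neutrophils 12.4% to 47.8% of Mmp8, and the monocyte part of each protease gene is largest in NTT, where monocytes are most of the cells.

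The first comparison set tumours naive to targeted therapy against resistant ones. Differences are log2 ratios of CPM + 1, a gene is counted when it is past 2-fold, and intervals refer to the ratio of the CPM without the added 1. Over all cells 4 of the 9 genes were past 2-fold, with 8 of the 9 reaching 10 CPM in the mean of the samples, beside 12.9% of the 7054 genes that reach it. Mmp12 was higher in NTT by 2.42 (2.40 to 2.48). Timp1 was lower, at -3.16 (-3.56 to -3.24), Timp2 at -3.41 (-3.50 to -3.38) and Timp3 at -3.40, where its low CPM in NTT makes the value depend on the added 1 (-4.81 to -4.05). Mmp13 was at 0.92 (0.88 to 0.99), Mmp8 at 0.47 (-0.06 with cell types weighted equally), Adam8 at -0.43, Mmp19 at -0.54 and Mmp14 at -0.77. The median of all genes was -0.10, and TMM factors moved it to 0.04; relative to it Mmp13 was at 1.02 and would count as a 5th. Without the Myofibrobl cells, of which NTT held 6 and RTT 249, Timp1 was at -1.43 and Timp3 at -0.04, while Timp2 stayed at -3.40. The elastase was thus higher and Timp1 and Timp2 lower in NTT with or without these cells, and Timp3 was lower only with them.

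Within classes Mmp12, Timp1 and Timp2 kept their sides. In monocytes 4 genes were past 2-fold, beside 2.95% of 6438 genes, Mmp12 at 2.05 (398 against 95.4 CPM), Timp1 at -1.57 (3.88 against 13.5), Timp2 at -2.16 (25.7 against 118) and Mmp8 at -1.13 (20.1 against 45.1). In macrophages 4 were past it too, beside 8.19% of 7061 genes, Mmp13 at 2.11 (214 against 48.7 CPM), Mmp12 at 1.68 (185 against 56.9), Timp2 at -1.27 (176 against 426) and Mmp19 at -1.15 (21.4 against 48.6), while Timp1 was at -0.94. The summed macrophage markers moved with these values, from 5234 CPM in monocytes of NTT to 15043 in those of RTT and from 17068 to 33312 in macrophages. The summed monocyte markers moved the other way, from 7676 CPM in NTT to 3429 in RTT within monocytes and from 1784 to 329 within macrophages. Those of cDC2s went from 63.2 to 25.3 CPM within monocytes and from 115 to 12.1 within macrophages, where those of cDC1s went from 216 to 53.1 and of osteoclast-like cells from 740 to 1828. The part of these lists was not tested. Over the 6 types with 50 cells in both samples, in which 3.13% to 10.8% of genes were past 2-fold, Timp1 was lower in NTT in 6 of 6 (-3.49 to -1.25) and Timp2 in 6 of 6 (-3.62 to -0.99), with every counting interval below 0. The -3.49 was that of neutrophils and rested on 1 UMI in NTT and 30 in RTT, 15 of them in 1 cell, with 5.50 to 46.3 CPM over the loads of RTT. Mmp12 was higher in 5 of 6, past 2-fold in each, and lower in cDC2s (-0.96). Mmp13 was higher by over 2-fold in TAM_cycling, TAM_H2Ab1, cDC2 and neutrophils, with load ranges that overlapped in cDC2s (27 against 10 UMIs) and in neutrophils (54.8 to 127 CPM against 4.87 to 74.5), and was at -0.38 in Monocyte_1 and -0.64 in Infl_Mono. In no type was Mmp13 above 1.64, against 2.11 in the macrophage class. Its levels were 146 against 46.1 CPM in TAM_cycling and 302 against 134 in TAM_H2Ab1. TAM_H2Ab1 made up 192 of the 308 macrophages in NTT but 63 of the 6734 in RTT. Mmp14 was lower in 6 of 6 and Mmp19 in 6 of 6, Mmp14 never by 2-fold (-0.73 to -0.12) and Mmp19 once (-1.38 in TAM_H2Ab1), with the interval below 0 in 3 types for Mmp14 and 5 for Mmp19.

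**Figure D3:**
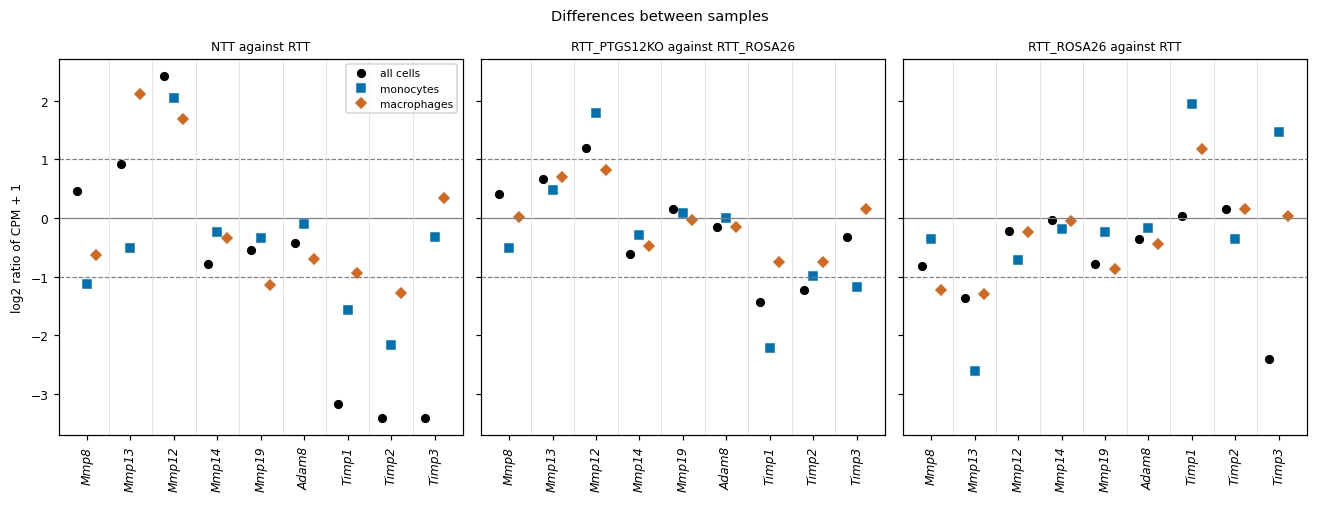
Log2 ratio of CPM + 1 for each gene in the 3 comparisons, over all cells (circles), monocytes (squares) and macrophages (diamonds); dashed lines mark 2-fold. Mmp12 is above the upper line and Timp2 below the lower one in NTT against RTT in all 3 scopes, and Mmp12 is above 0 and Timp1 and Timp2 below 0 in the knockout comparison.

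The second comparison asked what differs when the cancer cells lack the COX enzymes. Ptgs1 was at 55.4 CPM in RTT_ROSA26 and 14.9 in RTT_PTGS12KO and Ptgs2 at 231 and 349, but the edit was made in cancer cells and the sort took CD45+ cells, so these values check nothing. Over all cells 3 of the 9 genes were past 2-fold in RTT_PTGS12KO against RTT_ROSA26, beside 5.91% of genes: Mmp12 at 1.20 (1.17 to 1.26), Timp1 at -1.43 (-1.54 to -1.41) and Timp2 at -1.22 (-1.25 to -1.20). Mmp13 was at 0.66, Mmp8 at 0.41, Mmp19 at 0.16, Adam8 at -0.14, Timp3 at -0.32 and Mmp14 at -0.62. The median of all genes was -0.12 here and 0.01 with TMM factors, and relative to it the same 3 genes were past 2-fold, at 1.31, -1.31 and -1.10. With the cell types weighted equally only Timp1 was, at -1.69, with Mmp12 at 0.73 and Timp2 at -0.64, and Mmp8 turned to -0.15. Without Myofibrobl, Timp1 was at -1.10.

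In monocytes 3 genes were past 2-fold, beside 3.45% of genes. Mmp12 was at 1.79 (202 against 57.9 CPM, 1.43 to 2.20) and Timp1 at -2.21 (11.1 against 54.9 CPM, -2.71 to -1.87). Timp3 was the third, at -1.18, on 4 UMIs in RTT_ROSA26 and with an interval that includes 0 (-3.18 to 0.20). Its monocyte level was below the 10 CPM of the background genes in every sample. Timp2 was at -0.99 in monocytes and at 0.25 in Monocyte_1 alone, with macrophage marker sums of 6257 and 9129 CPM in monocytes of RTT_PTGS12KO and RTT_ROSA26, and 6654 and 7426 in Monocyte_1, whose part was not tested. The class was made up differently in the pair, with 3347 of 4015 cells in RTT_PTGS12KO but 54 of 144 in RTT_ROSA26 named Monocyte_1, and 635 and 86 named Infl_Mono. Within these types Mmp12 was at 1.35 in Monocyte_1 (224 against 87.3 CPM) and 0.21 in Infl_Mono (44.5 against 38.3 CPM, -0.42 to 0.92), both below the value of the class. The RTT_ROSA26 monocytes numbered 144, and their Mmp12 ranged from 11.2 to 102 CPM over loads, against 192 to 212 in RTT_PTGS12KO. In Monocyte_1 of RTT_ROSA26 the 36 Mmp12 UMIs came from 6 cells and gave 0 to 225 CPM over loads, which overlapped the 218 to 232 of RTT_PTGS12KO. In macrophages none of the 9 was past 2-fold, beside 3.4% of genes. Mmp12 was at 0.82 (85.9 against 48.4 CPM), Mmp13 at 0.70 (31.8 against 19.3), Timp1 at -0.76 (17.4 against 30.1), Timp2 at -0.74 (283 against 473) and Mmp14 at -0.47 (92.5 against 129), each with a counting interval that leaves out 0. With load 2 alone Mmp12 was at 1.05, and with load 3 alone Mmp13 was at 1.04. The median of all genes was -0.08 there. Marker sums moved within the macrophages too: from RTT_ROSA26 to RTT_PTGS12KO, those of macrophages went from 25806 to 15976 CPM, of osteoclast-like cells from 2228 to 1102, of monocytes from 346 to 651 and of cDC2s from 16.5 to 41.3, and their part was not tested.

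Over the 9 types with 50 cells in both samples, in which 1.86% to 14.6% of genes were past 2-fold, Timp1 was lower in RTT_PTGS12KO in 9 of 9, by over 2-fold in 7 (-2.59 to -0.33), with every interval below 0. Mmp14 was lower in 9 of 9, never by 2-fold (-0.75 to -0.19), with the interval below 0 in 7. Mmp13 and Mmp12 each had 5 intervals above 0. Mmp13 was higher in 8 of 9, past 2-fold in Monocyte_1, neutrophils and Ctsk_Macro. In Monocyte_1 of RTT_ROSA26 it rested on 6 UMIs in 3 cells. The loads there gave 0 to 33.1 CPM, which overlapped the 27.1 to 36.1 of RTT_PTGS12KO. The neutrophil value rested on 45 UMIs against 21, with 20 of the 45 in 1 cell. Mmp12 was higher in 8 of 9, past 2-fold in Monocyte_1, TAM_Spp1 and Macro, near 0 in TAM_C1q (0.03), and lower in Ctsk_Macro (-1.16), where the levels were 5.69 and 14.0 CPM on 22 and 120 UMIs. Timp2 was lower in 7 of 9, past 2-fold in Infl_Mono, Macro and TAM_cycling, and higher in Ctsk_Macro (0.13, 0.07 to 0.20).

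The third comparison, RTT_ROSA26 against RTT, set against each other resistant lines that both keep Ptgs1 and Ptgs2. It shares RTT with the first comparison and RTT_ROSA26 with the second. Over all cells Mmp13 (-1.36, -1.48 to -1.33) and Timp3 (-2.40, -2.95 to -2.60) were past 2-fold, 2 of 9 beside 1.52% of genes. Timp3 was at 0.06 without Myofibrobl, whereas Timp1, at 0.03 with those cells, was at 1.23 without them. In monocytes 3 of 9 were past it, beside 3.29% of genes: Mmp13 at -2.61 (23.0 against 145 CPM), Timp1 at 1.95 (54.9 against 13.5) and Timp3 at 1.46, on 4 UMIs in each sample. Monocyte_1 was 54 of the 144 monocytes in RTT_ROSA26 and 384 of the 522 in RTT, monocyte marker sums were 7402 and 3429 CPM, and macrophage marker sums 9129 and 15043. In macrophages 3 were past it, beside 1.3% of genes: Mmp13 at -1.30 (19.3 against 48.7 CPM), Mmp8 at -1.22 (4.24 against 11.2) and Timp1 at 1.18 (30.1 against 12.7), with macrophage marker sums of 25806 and 33312 CPM. The part of these lists was not tested. Timp3 in monocytes did not reach the 10 CPM mean of the background genes. Nor did Mmp8 in macrophages, at 4.24 to 11.2 CPM over the samples. Over 10 types, in which 0.676% to 8.23% of genes were past 2-fold, Timp1 was higher in RTT_ROSA26 in 10 of 10 (0.48 to 2.36), Mmp13 lower in 9 of 10 (-2.91 to 0.26) and Mmp19 lower in 10 of 10 (-1.06 to -0.15), with the interval on that side of 0 in 9, 8 and 6 types. Mmp12 had no common direction (higher in 4, lower in 6, with the 3.05 of Macro resting on 1 UMI in RTT), and Timp2 was not past 2-fold in any. In macrophages, the values of this comparison and of the knockout comparison were 1.18 and -0.76 for Timp1, -1.30 and 0.70 for Mmp13, -0.23 and 0.82 for Mmp12, and 0.15 and -0.74 for Timp2. For Timp1 they were 0.03 and -1.43 over all cells and 1.95 and -2.21 in monocytes. With load 1 alone the -0.23 of Mmp12 in macrophages turned to 0.09.

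**Figure D4:**
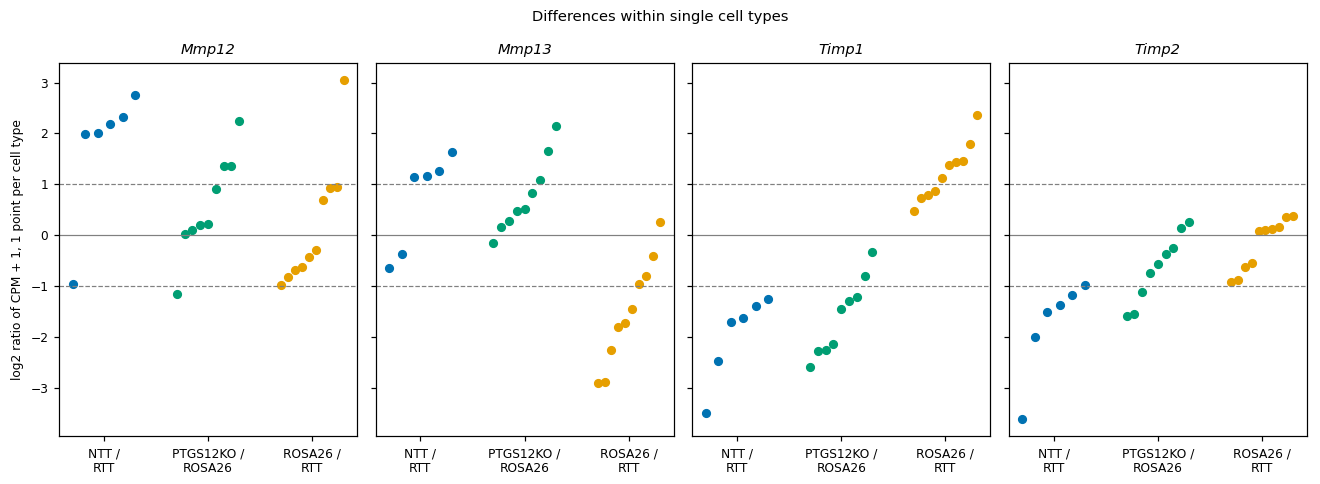
Log2 ratios of CPM + 1 within single cell types for Mmp12, Mmp13, Timp1 and Timp2, 1 point per type with at least 50 cells in both samples, sorted within each comparison (6, 9 and 10 types); dashed lines mark 2-fold. Timp1 points are all below 0 in the first and second comparisons and all above 0 in the third, and Mmp13 points of the third are below 0 in 9 of 10.

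Detection of Mmp12 and Mmp13 went together. In cells thinned to 3000 UMIs, Mmp13 was more frequent among cells with a Mmp12 UMI than among cells without in 18 of 18 combinations of sample and cell type, at 7.28% to 63.6% against 1.59% to 36.9%. Most cells with a Mmp12 UMI nonetheless had none of Mmp13, except in TAM_H2Ab1 of NTT. In Monocyte_1 the shares were 20.5% against 8.64% in NTT and 13.2% against 3.86% in RTT_PTGS12KO. Cells that hold more than one cell would also share genes, and their part was not tested. Other pairs were less uniform. Mmp12 was more frequent with Mmp8 in 14 of 16 combinations and Timp2 more frequent with Mmp14 in 16 of 20. Timp2 was more frequent with Mmp12 in 9 of 18 and less frequent in the other 9. Over 42 sums of a sample and a type (14 types, which share 4 samples and their depths), the closest pair of members was Mmp13 and Adam8 (Pearson r of log2(CPM + 1), 0.637), then Timp1 and Timp3 (0.603), and the most opposed pair was Mmp12 and Timp2 (-0.571).

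**Figure D5:**
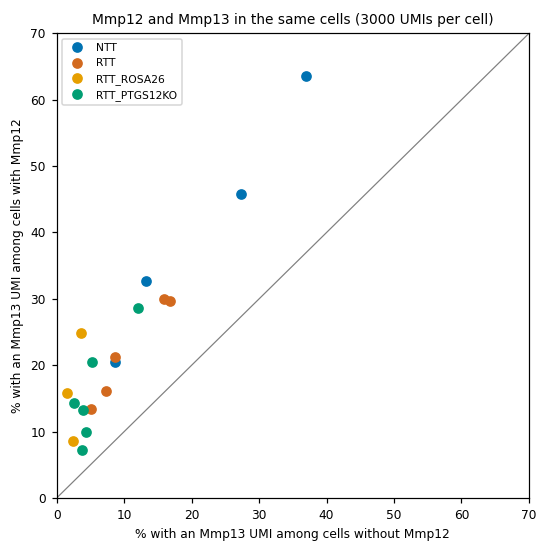
Share of cells with a Mmp13 UMI among cells with a Mmp12 UMI (vertical, per cent) against cells without one (horizontal, per cent), each cell thinned to 3000 UMIs; 1 point per sample and cell type, coloured by sample, with the line of equality. All 18 points lie above the line, the highest at 63.6% against 36.9% in NTT.

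The rest of the pathway was read from fixed lists. None of the 13 other matrix metalloproteinases reached 10 CPM in the mean over all cells. At these low levels 3 of the 13 were past 2-fold in NTT against RTT, beside 12.9% of genes, and 2 in the knockout comparison, beside 5.91%. Of the ones past it, Mmp2, the gelatinase that TIMP2 and MMP14 act on, was lower in NTT than in RTT (-2.37) and lower in RTT_PTGS12KO than in RTT_ROSA26 (-1.17), and Mmp25, a membrane-anchored leukocyte member, was higher (2.20 and 2.05). Mmp11 was lower in NTT (-1.05). None of the 3 other inhibitors (Timp4, Reck, A2m) was past 2-fold in any comparison over all cells, monocytes or macrophages. Of the 10 other ADAM proteases, 4 of which reached 10 CPM, 1 was past it in NTT against RTT over all cells (Adamts1, lower), beside 12.9% of all genes, and none in the knockout comparison, beside 5.91%.

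Genes of matrix proteins that these enzymes can cut were lower in NTT too. Of 10, 7 were lower in NTT over all cells and none higher, beside 12.9% of all genes in either direction, with a median of -1.91 beside -0.10. These background values are over genes that reached 10 CPM, which 5 of the 10 did (4 in macrophages). Of those that reached 50 CPM in a sample, Spp1 was at -3.44, Fn1 at -3.21 and Thbs1 at -1.10, which encode osteopontin, fibronectin and thrombospondin-1. Below that level were Col1a2 (-2.83), Col3a1 (-2.61), Sparc (-2.30) and Col4a1 (-1.51). Myofibrobl numbered 6 cells in NTT and 249 in RTT and the summed fibroblast markers were at 10.5 and 82.8 CPM, and their part was not tested. In macrophages 5 of 10 were lower, beside 8.19% of genes, among them Spp1 (-2.24), Thbs1 (-1.97) and Fn1 (-1.65). In the knockout comparison none of the 10 was past 2-fold over all cells, beside 5.91% of genes. In RTT_ROSA26 against RTT 3 were lower, beside 1.52% of genes, Sparc and the collagen genes Col1a2 and Col3a1, the latter carried by Myofibrobl cells. Of the 9 genes of plasminogen activation, a protease system that can activate metalloproteinases, 5 reached 10 CPM and 3 were lower and 2 higher in NTT over all cells, beside the same 12.9%, and none was past 2-fold over all cells in the other comparisons. Of the 7 partner and clearance genes, 6 of which reached 10 CPM, Itgav (-1.77) and Lrp1 (-1.24), an integrin subunit and an endocytic receptor that clears protease complexes, were lower in NTT over all cells (12.9% of genes past 2-fold), with none past 2-fold in either of the other comparisons. Of the 7 neutrophil granule genes, 1 reached 10 CPM, and 1 was higher and 2 lower in NTT, again beside 12.9% of genes.

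The genes whose pattern was most like that of each member over the same 42 sums, among 5122 genes, are given as a description. Mmp8 was closest to Dgat2 (r = 0.914) and Hp (0.890), which encodes haptoglobin. Mmp12 was closest to Itgax (0.856), which encodes CD11c, Cwc25 (0.805) and Creb5 (0.778), and Mmp13 to Gm5150 (0.807), Ppt1 (0.798) and G530011O06Rik (0.778). Mmp14 was closest to Ldhb (0.860), Tgfbr1 (0.843) and Mdfic (0.824), Mmp19 to Ms4a6d (0.893), Pxk (0.875) and Pid1 (0.875), and Adam8 to Il1rn (0.881), which encodes the interleukin-1 receptor antagonist, Rab20 (0.874) and Gm5150 (0.868). Of the inhibitors, Timp2 was closest to Plod1 (0.915), which encodes a collagen lysyl hydroxylase, Etv1 (0.908) and Twf1 (0.891). Timp3 was closest to Mgp (0.892), Bdnf (0.886) and Pdgfra (0.884), and Timp1 to Ank (0.822), Igfbp6 (0.789) and Rab18 (0.758). Gm5150 was named for both Mmp13 and Adam8, the closest pair of members.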

How the data were processed

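Single-cell RNA sequencing was performed on sorted CD45+ cells of 4 tumour samples labelled with multiplexing oligos. The authors deposited raw UMI counts per gene and cell, made with Cell Ranger on mm10, and cell type names assigned in Seurat 4.3.0, and kept those in which more than 1000 genes were detected, with mitochondrial reads below 15% and ribosomal reads below 40%. No further cells were removed and no doublet caller was run; the oligos expose only doublets that join different samples. From the counts, UMIs were summed per sample and type, and CPM, log2 ratios of CPM + 1 and exact 95% intervals were computed in Python 3.11.15 (numpy 2.4.6, scipy 1.17.1, pandas 2.3.3, matplotlib 3.10.9), with TMM factors from edgeR 4.0.16 in R 4.3.3 as an alternative. Levels by type needed 50 cells. Monocytes were Monocyte_1, Infl_Mono and Monocyte_3; macrophages were the TAM types and Ctsk_Macro. Background shares used genes whose mean over the 4 samples reached 10 CPM (within a single type, the mean of the pair compared). Timp3 did not reach it over all cells, in monocytes or in macrophages, and Mmp8 did not in macrophages. Members and lists were chosen with earlier results of these data known. Genes were named as members, as up to 3 genes per list with at least 50 CPM and the largest ratios, or as the 3 closest correlates, 1 of which is not reported here; list genes below 50 CPM (Mmp2, Mmp11, Mmp25, Adamts1, Sparc, Col1a2, Col3a1 and Col4a1), UMI counts of single cells and the Monocyte_1 shares were named after their values were seen. The steps were tested on simulated data. Alternatives without Myofibrobl, and member ratios with equal weights, Monocyte_1 only or Macro included, were chosen after seeing the data.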

Additional observations from a re-analysis of the deposited data

Results flagged for a closer look

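The results here went in opposite directions in different cell populations under the same comparison, and none of these differences between populations was tested. Among 27 pairs of a gene and a comparison, 10 had counting intervals on both sides of 0 in single types. The first 3 given were picked out because the monocyte and macrophage intervals lay on opposite sides of 0, or because types with 10 CPM in at least 1 of the samples compared were past 2-fold both ways. Mmp13 in NTT against RTT was at -0.50 in monocytes and at 2.11 in macrophages, on the log2 scale. No single type was above 1.64. The levels were 146 against 46.1 CPM in TAM_cycling and 302 against 134 in TAM_H2Ab1. Mmp12 in RTT_PTGS12KO against RTT_ROSA26 was at 1.35 in Monocyte_1, 1.36 in TAM_Spp1 and 2.25 in Macro, and at -1.16 in Ctsk_Macro, where the levels were 5.69 and 14.0 CPM on 22 and 120 UMIs. Timp2 in RTT_ROSA26 against RTT was at -0.36 in monocytes and at 0.15 in macrophages, each within 2-fold, and at -0.91 in Monocyte_1. The -0.91 rested on 16 UMIs in RTT_ROSA26, with 13.2 to 66.6 CPM over loads, against 58.6 to 84.2 in RTT. In Infl_Mono Timp2 was at 132 CPM in RTT_ROSA26 and 244 in RTT. Monocyte_1 was 54 of the 144 monocytes in RTT_ROSA26 and 384 of the 522 in RTT. Of the others, Mmp8 in NTT against RTT was at -1.27 in Infl_Mono and 0.25 in neutrophils, and its 1.78 in TAM_H2Ab1 rested on 5 UMIs against 0. Mmp12 in NTT against RTT was at 2.00 in Monocyte_1 and -0.96 in cDC2s. Timp2 in RTT_PTGS12KO against RTT_ROSA26 was at -1.58 in Infl_Mono and 0.13 in Ctsk_Macro.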

How the results depend on the processing

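No paired analysis was possible because the labels hold 1 sample for every group. Counts of genes past 2-fold were within 1.5 times the reported count in 68 of 75 recalculations, under TMM factors, CPM + 10, a stricter cell filter, removal of the 5% of cells with the most UMIs, each load alone, and other choices of cells. The exceptions were as follows. RTT_PTGS12KO against RTT_ROSA26 over all cells gave 1 in place of 3 with types weighted equally, and in monocytes it gave 5 with load 1 or load 2 alone in place of 3, and in macrophages 1 with load 2 or load 3 alone in place of 0. With CPM + 10, NTT against RTT in monocytes gave 2 in place of 4 and RTT_ROSA26 against RTT in macrophages 1 in place of 3. Of 675 recalculated log2 ratios, 430 stayed within the counting interval of the reported ratio (widened to the ratio itself where the added 1 put that outside), 241 lay outside it (30, 46 and 43 of them with load 1, 2 or 3 alone), and 4 past 2-fold changed sign, all for Timp3: NTT against RTT over all cells 0.32 with types weighted equally, RTT_ROSA26 against RTT over all cells 0.059 without Myofibrobl and in monocytes -0.61 with load 2 alone, and RTT_PTGS12KO against RTT_ROSA26 in monocytes 1.29 with load 2 alone. The sums in monocytes rested on 4 UMIs in RTT_ROSA26. The first used a mean over types in which Myofibrobl has no place, since NTT held 6 such cells. The causes of the other changes were not tested. Depth limited Timp3 outside Myofibrobl and every gene in the 144 monocytes of RTT_ROSA26.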
